A study of Mus musculus with 19 samples.

Results

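*Pcdhb2* to *Pcdhb8* are 7 neighbouring genes at the start of the protocadherin β cluster of the mouse, and their RNA was measured by polyA RNA-seq in brains that carried either 2 working copies of *Wiz* or 1. They were chosen by gene symbol, and all 7 were found among the 41388 gene identifiers of the count tables. Clustered protocadherins are cadherin-like adhesion proteins of the neuronal surface. Each β gene has its own promoter and codes for a whole protein in a single exon, and each neuron transcribes only some of them, so that neighbouring cells carry different combinations. The combination serves as a molecular label by which the branches of a neuron recognise their own kind, and CTCF, cohesin and a distant enhancer act at the promoters. Wiz is a zinc finger protein that binds the histone methyltransferases G9a and GLP. The comparisons below ask what the loss of 1 functional *Wiz* allele does to the RNA of these 7 genes, in the embryonic and in the adult brain.

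The samples were FVB mice, either wildtype (*Wiz*+/+) or heterozygous for the ENU-induced *MommeD30* allele of *Wiz* (*Wiz*MommeD30/+). By the study's methods the allele was kept on the *Line3* strain, which is homozygous for a multicopy GFP transgene driven by erythroid elements of the human α-globin locus, so animals of both genotypes come from a line with that transgene, and embryos came from intercrosses of heterozygotes. Whole brains were taken at embryonic day 13.5 (E13.5) from males (3 *Wiz*+/+ and 3 *Wiz*MommeD30/+) and females (2 and 2), and cerebellums were taken from adult males at 56 days post partum (3 and 3). The 3 samples of a ChIP-seq experiment were not analysed here.

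Each library held between 16386029 and 50459755 counted reads, the fewest in the second male *Wiz*+/+ brain, and 978 to 3200 of them fell on the 7 genes together. *Wiz*, the mutated gene, was checked first. It had 174, 189 and 178 CPM (normalised reads, scaled to library size) in the male *Wiz*+/+ brains and 112, 119 and 116 CPM in the male *Wiz*MommeD30/+ brains, 177 and 184 against 123 and 121 CPM in female brains, and 105, 104 and 105 against 72.0, 72.2 and 75.0 CPM in cerebellum. The genotypes did not overlap in any of the 3 sets, so the labels and the gene go together. CPM values here are read counts scaled by the TMM factors of all 16 libraries. By sums of listed genes, the samples carried the markers of their tissue. The 5 genes of cerebellar granule neurons summed to 4549 to 4803 CPM in cerebellum and 351 to 433 CPM in E13.5 brain. The 4 genes of Purkinje cells summed to 6332 to 6849 and 43.4 to 59.5 CPM. For the 6 genes of neural progenitors the sums were 422 to 465 and 1582 to 1883 CPM. Within that list *Pax6* went the other way, with 141 CPM in *Wiz*+/+ cerebellum against 96.5 in male and 70.3 in female *Wiz*+/+ brain.

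In the GENCODE M21 annotation (GRCm38) the 7 genes sit in a row on chromosome 18, all read from the plus strand. *Pcdhb2* (ENSMUSG00000051599) runs from 37294812 to 37297624 and *Pcdhb3* (ENSMUSG00000045498) from 37300799 to 37304585. *Pcdhb4* (ENSMUSG00000045689) runs from 37307455 to 37311172, *Pcdhb5* (ENSMUSG00000063687) from 37320381 to 37323915 and *Pcdhb6* (ENSMUSG00000051678) from 37333921 to 37337674. *Pcdhb7* (ENSMUSG00000045062) runs from 37341702 to 37345202 and *Pcdhb8* (ENSMUSG00000045876) from 37355121 to 37358604. In the longest transcript each consists of 1 exon with the coding part and its UTRs, and the exon sequence of a gene is 2813 bases (*Pcdhb2*) to 3787 bases (*Pcdhb3*) long. Neighbours within the group are 2869 to 10005 bases apart, and the next gene, *Pcdhb9*, follows *Pcdhb8* only after 42250 bases. The group is therefore also set off by position from *Pcdhb9* to *Pcdhb22*.

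The genes resemble each other in sequence, which matters for how reads are assigned. The aligned transcripts of the 21 pairs among the 7 genes were 66.9 to 86.9% identical (median 69.8%). The closest pair was *Pcdhb6* and *Pcdhb8* at 86.9%, while *Pcdhb5* was closest to *Pcdhb7* (84.0%) and *Pcdhb7* to *Pcdhb9* (85.1%). Few stretches were exact copies: of all windows of 100 bases, the share with another exact match in the reference genome was 0% in *Pcdhb2*, *Pcdhb3* and *Pcdhb5*, 0.166% in *Pcdhb4*, 0.866% in *Pcdhb8*, 0.999% in *Pcdhb7* and 2.31% in *Pcdhb6*. The reference is C57BL/6J and the mice were FVB, so reads of *Pcdhb6*, *Pcdhb7* and *Pcdhb8* may have been assigned less surely than this share says. The annotation also holds the long genes *Gm42416*, *Gm37013* and *Gm37388* across the whole group, and these are not among the counted identifiers.

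In *Wiz*+/+ brains *Pcdhb7* was by far the most abundant of the 7 and *Pcdhb8* the least. Levels of different genes are compared per kilobase of exon. In male E13.5 brain *Pcdhb7* had 6.14 ± 0.05 CPM per kb (SD, n = 3), followed by *Pcdhb3* with 2.58 ± 0.32 and *Pcdhb5* with 2.24 ± 0.12, then by *Pcdhb2* with 1.64 ± 0.26, *Pcdhb6* with 1.54 ± 0.11, *Pcdhb4* with 1.29 ± 0.15 and *Pcdhb8* with 0.818 ± 0.128 CPM per kb. Neighbours in this order did not overlap between samples, except *Pcdhb3* with *Pcdhb5* and *Pcdhb2* with *Pcdhb6*. Female *Wiz*+/+ brains, which are other animals, gave nearly the same order: 6.54 ± 0.13 CPM per kb for *Pcdhb7* (SD, n = 2), 2.97 ± 0.03 for *Pcdhb3*, 2.42 ± 0.37 for *Pcdhb5*, 2.12 ± 0.08 for *Pcdhb6*, 1.90 ± 0.06 for *Pcdhb2*, 1.42 ± 0.10 for *Pcdhb4* and 0.897 ± 0.070 for *Pcdhb8*. Only *Pcdhb2* and *Pcdhb6* changed places. As a description across the 7 genes, Spearman's rho between the male and female levels was 0.96.

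**Figure D1:**
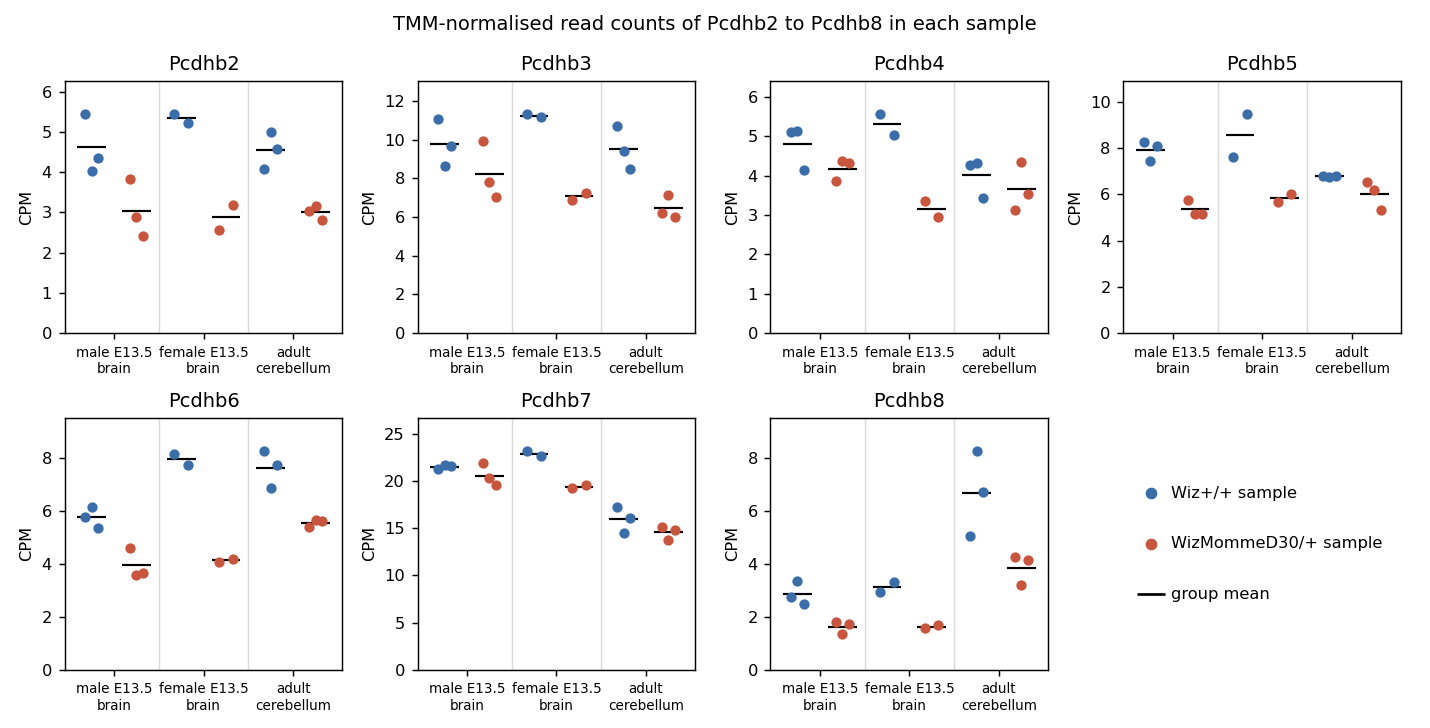
TMM-normalised read counts (CPM, y axis, from 0) of each of the 7 genes in every sample, with male E13.5 brain, female E13.5 brain and adult cerebellum from left to right in each panel. Points are samples (blue *Wiz*+/+, red *Wiz*MommeD30/+) and lines are group means. The red points lie below the blue ones for most genes, while those of *Pcdhb7* are close to the blue ones in male brain, at 20.6 against 21.5 CPM on average.

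In male E13.5 brain all 7 genes had lower mean levels in *Wiz*MommeD30/+ than in *Wiz*+/+ samples, and *Pcdhb5* passed the threshold of an adjusted p of at most 0.05 with a fold change under 0.7 or over 1.3. That was 1 of 7, where 0.184% of the 16848 genes tested passed in either direction and 0.166% as lower. *Pcdhb5* had 8.26, 7.44 and 8.08 CPM in the *Wiz*+/+ brains and 5.78, 5.15 and 5.16 CPM in the *Wiz*MommeD30/+ brains. The brains of the 2 genotypes were well apart. The fold change was 0.672, or -0.57 on the log2 scale (standard error, SE, 0.09), and the adjusted p was 0.0145 by edgeR's quasi-likelihood test with Benjamini-Hochberg adjustment over all genes tested. The call depended on single libraries: 0 of the 7 passed without the first or the third *Wiz*+/+ brain or without the second *Wiz*MommeD30/+ brain.

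*Pcdhb2*, *Pcdhb6* and *Pcdhb8* were lower in each *Wiz*MommeD30/+ male brain than in each *Wiz*+/+ male brain but did not pass. *Pcdhb8* had 2.73, 3.34 and 2.48 CPM against 1.78, 1.35 and 1.71 CPM, with the largest difference of the group, -0.78 on the log2 scale (SE 0.16, edgeR adjusted p = 0.107). *Pcdhb2* had 5.44, 4.04 and 4.36 CPM against 3.83, 2.88 and 2.40 CPM, with a log2 fold change of -0.63 (SE 0.16, edgeR adjusted p = 0.249). *Pcdhb6* had 5.78, 6.17 and 5.38 CPM against 4.63, 3.57 and 3.67 CPM, with a log2 fold change of -0.53 (SE 0.12, edgeR adjusted p = 0.169). For each of the 3, the highest *Wiz*MommeD30/+ sample was the first brain. With *Pcdhb5*, 4 of 7 genes had no overlap between genotypes in this direction, against 5.99% of all genes tested. Without a filter on low counts 4 of the 7 passed, against 0.688% of all genes, and the number over all genes rose from 31 to 175.

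The other 3 genes overlapped between genotypes in male brain. *Pcdhb3* had 11.1, 8.65 and 9.65 CPM in *Wiz*+/+ and 9.91, 7.82 and 7.01 CPM in *Wiz*MommeD30/+ brains, a log2 fold change of -0.27 (95% confidence interval -0.54 to -0.00244, adjusted p = 0.584, edgeR). *Pcdhb4* had 5.11, 5.13 and 4.14 CPM against 3.85, 4.36 and 4.31 CPM, a log2 fold change of -0.19 (-0.44 to 0.05, adjusted p = 0.684, edgeR). *Pcdhb7*, the most abundant, had 21.3, 21.6 and 21.6 CPM against 21.9, 20.3 and 19.6 CPM, a log2 fold change of -0.06 (-0.18 to 0.06, adjusted p = 0.811, edgeR). The first *Wiz*MommeD30/+ brain was above all 3 *Wiz*+/+ brains for *Pcdhb7* and was the highest of its group for 6 of the 7 genes. The interval of *Pcdhb7* ended at -0.18, short of the -0.57 of *Pcdhb5*.

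In female E13.5 brain the differences were larger for 6 of the 7 genes and had the same direction for all of them. Every one of the 7 was lower in both *Wiz*MommeD30/+ brains than in both *Wiz*+/+ brains, against 17.7% of the 17152 genes tested. By edgeR's quasi-likelihood test 0 of them passed, where 0.111% of all genes did. All 7 had an unadjusted p of at most 0.05 with a lower level, against 3.68% of all genes. DESeq2's Wald test called 2 of the 7, against 0.187% of all genes. The study itself used DESeq, and its list for female brain holds *Pcdhb2*, *Pcdhb3*, *Pcdhb4* and *Pcdhb6* as lower at the same limits.

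*Pcdhb6* came closest in females. It had 8.18 and 7.75 CPM in *Wiz*+/+ and 4.08 and 4.21 CPM in *Wiz*MommeD30/+ brains, a fold change of 0.517 (log2 -0.95, SE 0.12, edgeR adjusted p = 0.0569), and passed in DESeq2's Wald test (adjusted p = 0.00127). *Pcdhb8* had 2.95 and 3.30 CPM against 1.56 and 1.68 CPM, a fold change of 0.517 as well (log2 -0.95, SE 0.17, edgeR adjusted p = 0.274). *Pcdhb2* had 5.44 and 5.22 CPM against 2.56 and 3.18 CPM (log2 fold change -0.90, SE 0.16, edgeR adjusted p = 0.267). For these 3 genes the gap between genotypes was several times the gap between brains of 1 genotype.

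*Pcdhb4*, which overlapped in males, had 5.56 and 5.03 CPM against 3.35 and 2.93 CPM in females (log2 fold change -0.76, SE 0.15, edgeR adjusted p = 0.372). *Pcdhb3* had 11.3 and 11.2 CPM against 6.87 and 7.26 CPM, a log2 fold change of -0.68 (SE 0.11, edgeR adjusted p = 0.161), and it was the other gene to pass in DESeq2's Wald test (adjusted p = 0.0186). Both genes were therefore separated by genotype in females although they were not in males. *Pcdhb5* had 7.61 and 9.48 CPM against 5.66 and 6.03 CPM, with the widest spread between *Wiz*+/+ brains (log2 fold change -0.56, SE 0.15, edgeR adjusted p = 0.773). *Pcdhb7* again differed least, with 23.2 and 22.6 CPM against 19.2 and 19.5 CPM (log2 fold change -0.25, SE 0.07, edgeR adjusted p = 0.773). With 2 brains a genotype the count turned on single libraries. Leaving out a library leaves 1 brain in a group, so only effect sizes are given for such fits. In them all 7 genes stayed below 0 on the log2 scale. The values ran from -1.07 to -0.75 for *Pcdhb2*, from -0.72 to -0.38 for *Pcdhb5* and from -0.26 to -0.24 for *Pcdhb7*.

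Whether the genotype difference depended on sex was tested by an interaction term over all 10 brains. The difference was larger in females for 6 of the 7 genes, and most for *Pcdhb4* (-0.57 on the log2 scale, female minus male, standard error 0.18, unadjusted p = 0.00694). *Pcdhb3*, *Pcdhb6* and *Pcdhb7* also had an unadjusted p of at most 0.05, which makes 4 of 7, against 1.74% of all genes in this direction. After adjustment 0 of the 7 and 0 of the 17620 genes passed in edgeR's quasi-likelihood test, where 701 genes had an unadjusted p of at most 0.05 and the adjusted p of *Pcdhb4* was 0.985. DESeq2's Wald test called 1 gene, which was none of the 7. A difference between the sexes was thus not established for any of these genes.

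Taking all 10 brains in a fit with sex as a covariate, 4 of the 7 genes passed the threshold as lower. Of all genes, 0.346% passed in either direction and 0.25% as lower. This fit shares its samples with both of the fits by sex. *Pcdhb8* had a fold change of 0.551 (log2 -0.86, SE 0.11, edgeR adjusted p = 0.00179), *Pcdhb2* of 0.597 (log2 -0.74, SE 0.13, edgeR adjusted p = 0.0156), *Pcdhb6* of 0.608 (log2 -0.72, SE 0.10, edgeR adjusted p = 0.00253) and *Pcdhb5* of 0.676 (log2 -0.57, SE 0.07, edgeR adjusted p = 0.00188). The remaining 3 did not pass. *Pcdhb3* had a log2 fold change of -0.44 (adjusted p = 0.115, edgeR), *Pcdhb4* of -0.43 (adjusted p = 0.155, edgeR) and *Pcdhb7* of -0.14 (95% confidence interval -0.24 to -0.04, adjusted p = 0.263, edgeR). The median over the 7 genes was -0.57, and over all genes tested it was 0.00. In bulk tissue, fewer cells that transcribe a gene and less RNA per cell cannot be told apart.

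**Figure D2:**
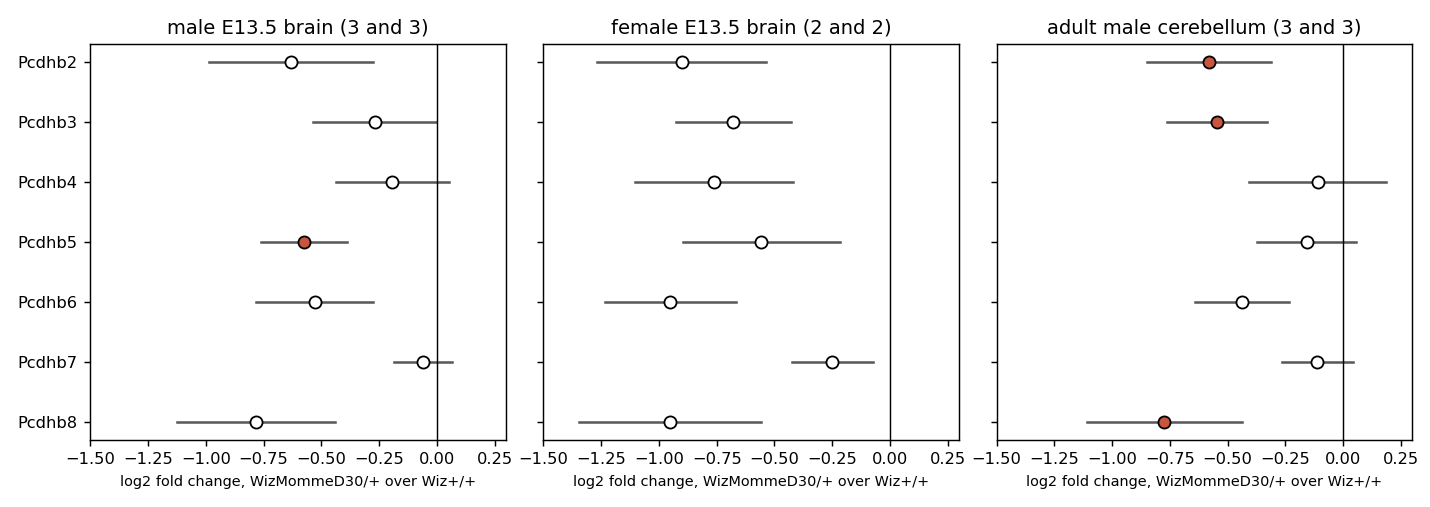
Log2 fold changes of *Wiz*MommeD30/+ over *Wiz*+/+ (x axis) for the 7 genes in male E13.5 brain, female E13.5 brain and adult male cerebellum, each fitted on its own samples; numbers in the titles are samples of each genotype. Points are edgeR estimates, bars 95% confidence intervals, and filled points passed the threshold (*Pcdhb5* in male brain, and *Pcdhb2*, *Pcdhb3* and *Pcdhb8* in cerebellum). All 21 estimates lie below 0.

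In adult cerebellum *Pcdhb2*, *Pcdhb3* and *Pcdhb8* passed the threshold as lower in *Wiz*MommeD30/+ mice. That was 3 of 7, where 0.832% of the 15979 genes tested passed in either direction and 0.3% as lower. *Pcdhb8* had 5.05, 8.27 and 6.72 CPM in *Wiz*+/+ and 4.24, 3.20 and 4.13 CPM in *Wiz*MommeD30/+ cerebellums, a fold change of 0.585 (log2 -0.77, SE 0.16, edgeR adjusted p = 0.00986). *Pcdhb2* had 4.08, 4.99 and 4.58 CPM against 3.04, 3.16 and 2.80 CPM, a fold change of 0.669 (log2 -0.58, SE 0.13, edgeR adjusted p = 0.0136). *Pcdhb3* had 10.7, 9.42 and 8.48 CPM against 6.23, 7.14 and 5.996 CPM, a fold change of 0.685 (log2 -0.54, SE 0.10, edgeR adjusted p = 0.0061). For each of the 3 the genotypes did not overlap, although the *Wiz*+/+ values of *Pcdhb8* spread widely. With *Pcdhb6*, 4 of the 7 were without overlap on the scale of the fit, against 12.4% of all genes.

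*Pcdhb6* had 8.29, 6.87 and 7.76 CPM in *Wiz*+/+ and 5.40, 5.67 and 5.64 CPM in *Wiz*MommeD30/+ cerebellums, also without overlap. Its adjusted p was 0.0138 in edgeR, but its fold change of 0.738 (log2 -0.44, standard error 0.10) lay above the limit of 0.7. Without a threshold on the fold change, 4 of 7 genes passed as lower, against 2.56% of all genes. *Pcdhb5* had 6.78, 6.76 and 6.79 CPM against 6.53, 6.18 and 5.31 CPM (log2 fold change -0.16, 95% confidence interval -0.37 to 0.06, adjusted p = 0.424, edgeR). Its genotypes did not overlap on this scale but did on that of the fit, whose TMM factors come from the cerebellums alone.

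*Pcdhb4* had 4.26, 4.32 and 3.43 CPM against 3.12, 4.34 and 3.52 CPM (log2 fold change -0.11, interval -0.41 to 0.18, adjusted p = 0.717, edgeR). *Pcdhb7* had 17.2, 14.4 and 16.1 CPM against 15.1, 13.8 and 14.8 CPM (log2 fold change -0.11, interval -0.27 to 0.04, adjusted p = 0.423, edgeR). *Pcdhb7* was the gene with the smallest or nearly the smallest difference in each of the 3 sets of samples. The count of genes past the threshold was 1 without the third *Wiz*+/+ cerebellum (*Pcdhb3*) and 1 without the third *Wiz*MommeD30/+ cerebellum (*Pcdhb8*).

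Blood genes differed between the cerebellums as well. The 6 listed genes summed to 160 to 250 CPM in *Wiz*+/+ and 283 to 522 CPM in *Wiz*MommeD30/+ cerebellums. Of the 5 tested, 4 passed the threshold as higher (*Hba-a1*, *Hba-a2*, *Hbb-bs* and *Alas2*, which code for haemoglobin chains and an enzyme of haem synthesis). Choroid plexus genes summed to 1893 to 2135 CPM in *Wiz*+/+ and 1024 to 2167 CPM in *Wiz*MommeD30/+ cerebellums. Neuronal genes, the class that transcribes protocadherins, overlapped between genotypes, at 4574 to 4789 and 4469 to 4943 CPM for 7 genes. Of the 52 marker genes tested in cerebellum, 21 had an unadjusted p of at most 0.05. By the edgeR adjusted p alone 10 were lower and 6 were higher, the 4 blood genes included. Among the lower ones were *Tubb3* of neurons (log2 fold change -0.27), *Nes* of progenitors (-0.38), *Gfap* of astrocytes (-0.19) and *Mag* and *Mbp* of oligodendrocytes (-0.19 and -0.17). The list of astrocytes and Bergmann glia held 1 lower and 1 higher gene, and so did that of granule neurons. The part of these shifts in the results for cerebellum was not tested. In male E13.5 brain the 7 neuronal genes summed to 5578 to 5831 CPM in *Wiz*+/+ and 5601 to 5722 CPM in *Wiz*MommeD30/+ samples. In female brain the same 7 genes summed to 5764 to 6044 and 5484 to 5819 CPM. In the fit over both sexes all 7 had a log2 fold change below 0 (median -0.09). Of them 4 had an unadjusted p of at most 0.05 in edgeR, and 0 passed the threshold. In that fit 0 of the 6 progenitor genes were below 0 (median 0.11). Of the genes in the 11 marker lists, 0 passed the threshold in edgeR between genotypes in either sex at E13.5, and 9 of the 50 tested in males and 12 of the 51 tested in females had an unadjusted p of at most 0.05. In female *Wiz*MommeD30/+ brains 1 of the 11 lists nevertheless summed to more than in *Wiz*+/+ brains without overlap, progenitors (1793 to 1883 against 1582 to 1776 CPM). The 3 lists that summed to less were blood (297 to 338 against 361 to 421 CPM), astrocytes and Bergmann glia (152 to 159 against 170 to 177 CPM) and microglia (47.2 to 49.6 against 52.9 to 54.3 CPM). In male *Wiz*MommeD30/+ brains 2 lists summed to more and 0 to less. They were Purkinje cells (57.4 to 59.5 against 49.1 to 51.3 CPM) and granule neurons (409 to 420 against 382 to 404 CPM). Of all single genes tested, 17.7% in females and 5.99% in males were lower without overlap. The list sums rested on few genes and do not measure those cell types at E13.5. In male *Wiz*+/+ brains *Zic1* had 286 CPM but *Gabra6* 0.00631 and *Cbln3* 1.35, and *Itpr1* had 33.0 but *Pcp2* 0.151. In female *Wiz*+/+ brains *Slc1a3* had 164 CPM but *Gfap* 0.145. Within the granule list *Zic1* (log2 fold change 0.10) and *Zic2* (0.07) were higher in males, and *Neurod1* (-0.10) and *Cbln3* (-0.24) lower. The part of the shifts in these lists in the E13.5 values was not tested.

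The genotype difference was compared between male E13.5 brain and cerebellum with an interaction term over these 12 samples, in which age and tissue cannot be told apart. None of the 7 genes passed, where 0.26% of the 17337 genes tested did, and 1 of the 7 had an unadjusted p of at most 0.05 against 9.72% of all genes. That gene was *Pcdhb5*, whose decrease was smaller in cerebellum by 0.42 on the log2 scale (standard error 0.13, 95% confidence interval 0.13 to 0.70, adjusted p = 0.281, edgeR). For *Pcdhb8* the 2 differences were close to equal, with an interaction of 0.00366 (interval -0.44 to 0.45), and for *Pcdhb2* it was 0.05 (-0.42 to 0.52). DESeq2's Wald test called 0 of the 7 as well. *Pcdhb7* had the narrowest, -0.06 (-0.25 to 0.14).

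In *Wiz*+/+ animals the levels themselves differed between cerebellum and male E13.5 brain for some of the 7 genes. *Pcdhb8* was higher in cerebellum by 1.27 on the log2 scale (fold change 2.42, SE 0.17, edgeR adjusted p = 4.4e-06), with 5.05 to 8.27 CPM against 2.48 to 3.34 CPM. *Pcdhb6* was higher by 0.42 (fold change 1.34, SE 0.10, edgeR adjusted p = 0.00109). These 2 of 7 compare with 69.3% of the 16840 genes tested that passed in either direction and 36.4% as higher. *Pcdhb7* was lower in cerebellum by an adjusted p of 2.6e-05 in edgeR, and *Pcdhb5* by one of 0.0194, but their fold changes of 0.743 and 0.848 stayed within the limits. By the adjusted p alone 4 of the 7 passed, against 86.5% of all genes. *Pcdhb2* (log2 -0.06, interval -0.34 to 0.22), *Pcdhb3* (-0.07, interval -0.29 to 0.16) and *Pcdhb4* (-0.25, interval -0.53 to 0.03) did not pass.

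The tissue comparison depended on the scaling. With total counts alone the median log2 fold change of all genes moved from -0.02 to -0.23, and the genes past the threshold went from 5544 lower and 6124 higher to 6690 lower and 5101 higher. With that scaling *Pcdhb8* was still higher (1.06), *Pcdhb6* was higher by 0.21 and no longer passed (adjusted p = 0.0626, edgeR), and *Pcdhb7* passed as lower (-0.64). *Pcdhb6* was the only 1 of the 2 called genes to lose its place without a single library: its fold change fell under the limit of 1.3 without the first *Wiz*+/+ cerebellum (log2 0.37) or the third *Wiz*+/+ male brain (log2 0.38). Granule neuron, Purkinje and progenitor markers differ between these tissues, as given above, and cell composition and level per cell cannot be told apart.

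**Figure D3:**
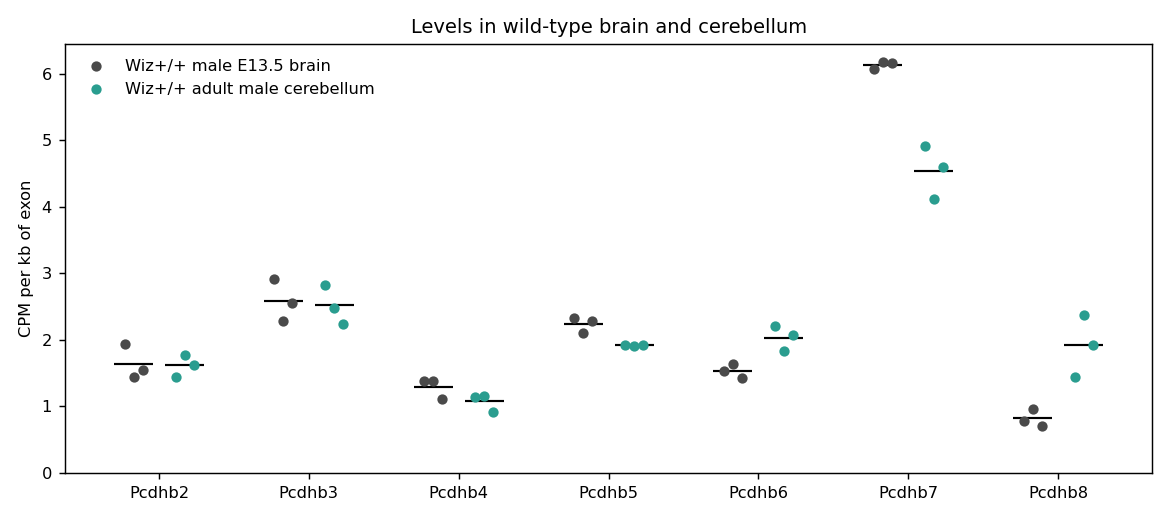
Levels of the 7 genes per kilobase of exon (CPM per kb, y axis, from 0) in the 3 *Wiz*+/+ male E13.5 brains (grey) and the 3 *Wiz*+/+ adult male cerebellums (green); points are samples and lines are means. *Pcdhb7* is highest in both tissues, at 6.14 and 4.55 CPM per kb, and *Pcdhb8* rises from the lowest place at 0.818 to 1.92 CPM per kb.

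Per kilobase, *Pcdhb7* led in cerebellum too, with 4.55 ± 0.40 CPM per kb (SD, n = 3), followed by *Pcdhb3* with 2.52 ± 0.30, *Pcdhb6* with 2.04 ± 0.19, *Pcdhb8* with 1.92 ± 0.46, *Pcdhb5* with 1.92 ± 0.0049, *Pcdhb2* with 1.62 ± 0.16 and *Pcdhb4* with 1.08 ± 0.13. *Pcdhb6*, *Pcdhb8* and *Pcdhb5* overlapped from each to the next, and the other neighbours in the order did not. *Pcdhb8* thus left the last place, which it held in both sexes at E13.5, and *Pcdhb4* took it. In *Wiz*MommeD30/+ cerebellums *Pcdhb7* led with 4.16 ± 0.20 CPM per kb, *Pcdhb3* and *Pcdhb5* followed at 1.70 ± 0.16 and 1.70 ± 0.18, and *Pcdhb8*, *Pcdhb2* and *Pcdhb4* were last at 1.11 ± 0.16, 1.07 ± 0.07 and 0.984 ± 0.168, overlapping from each to the next. In male *Wiz*MommeD30/+ brains the order was that of the *Wiz*+/+ brains but for *Pcdhb4*, which with 1.12 ± 0.08 CPM per kb moved above *Pcdhb2* (1.08 ± 0.26) and *Pcdhb6* (1.05 ± 0.15), and these 3 overlapped. In female *Wiz*MommeD30/+ brains the order was that of the female *Wiz*+/+ brains, from 5.53 ± 0.06 CPM per kb for *Pcdhb7* (SD, n = 2) to 0.465 ± 0.025 for *Pcdhb8*.

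In E13.5 brain the more abundant genes tended to have the smaller decrease. Across the 7 genes, Spearman's rho between the log2 fold change and the level (mean log2 CPM per kb over the same samples) was 0.54 in males and 0.82 in females, and Pearson's r was 0.77 and 0.88. The level over the samples of a fit contains the change itself, so the level was also taken from *Wiz*+/+ brains of the other sex, which gave a rho of 0.61 for the male and 0.86 for the female fold changes. With a library left out, the rho over the same samples ran from 0.54 to 0.75 in males and from 0.64 to 0.75 in females. *Pcdhb7* lies far from the other 6 on the level axis. Without it rho was 0.26 in males and 0.71 in females. In cerebellum rho was 0.11 (-0.11 to 0.32 with a library left out), and 0.29 with the level taken from male *Wiz*+/+ brain. Over the 21 genes from *Pcdhb2* to *Pcdhb22* rho was 0.09 in males, 0.25 in females and 0.42 in cerebellum. The genes share libraries and the same animals, and these coefficients describe them only.

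**Figure D4:**
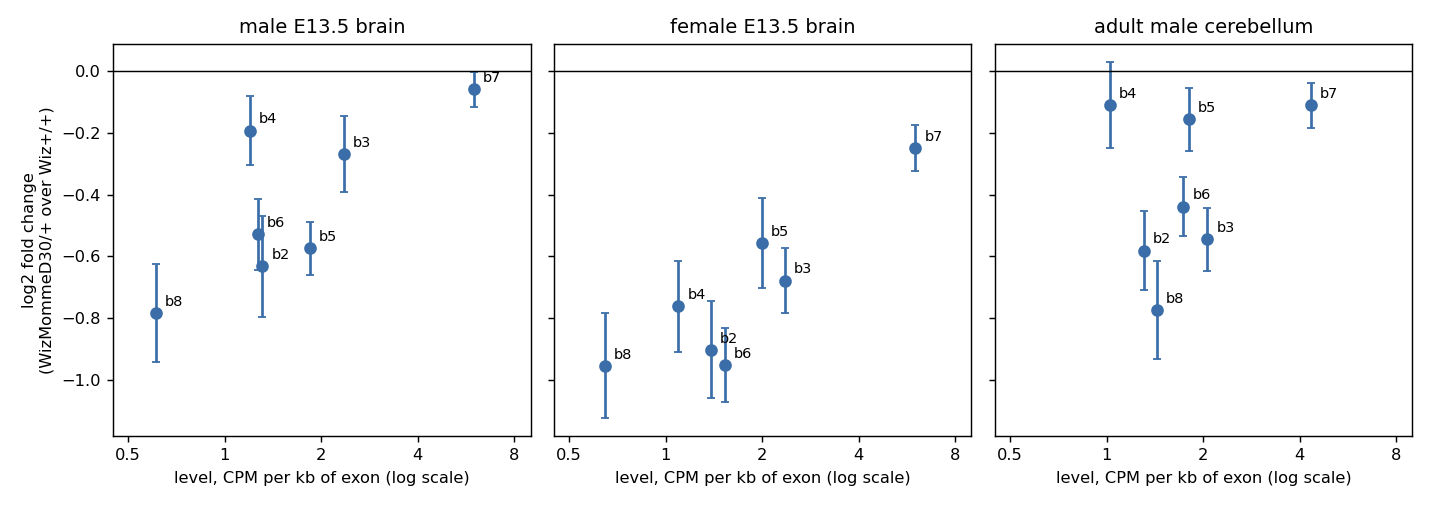
Log2 fold change of *Wiz*MommeD30/+ over *Wiz*+/+ (y axis, bars are standard errors) against level in CPM per kb of exon (x axis, log scale; mean over the samples of each set) for the 7 genes (b2 is *Pcdhb2*) in male E13.5 brain, female E13.5 brain and adult male cerebellum. *Pcdhb7* stands at the right in each panel near -0.06, -0.25 and -0.11, and *Pcdhb8* is lowest in each, at -0.78, -0.95 and -0.77.

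The size of the decrease was ordered in a like way in the 3 sets, which share no sample. Across the 7 genes, rho between the log2 fold changes was 0.68 for male against female brain, 0.82 for male brain against cerebellum and 0.64 for female brain against cerebellum. *Pcdhb8* had the largest decrease in each set, in both sexes at E13.5 by less than its standard error. Over *Pcdhb9* to *Pcdhb22* the same values were 0.87, 0.25 and 0.60.

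Position within the group gave no such order. Over the 7 genes, rho between the log2 fold change and the place along the strand was -0.04 for males, -0.14 for females and 0 for cerebellum, and with a library left out it ran from -0.29 to -0.04, from -0.25 to 0.25 and from -0.11 to 0.11. In both sexes at E13.5 the largest and the smallest decrease were those of the neighbours *Pcdhb8* and *Pcdhb7*. Over the 21 genes from *Pcdhb2* to *Pcdhb22* it was -0.58, -0.50 and 0.56: later genes had the larger decrease in brain and the smaller one in cerebellum.

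The rest of the cluster is set here beside the 7 genes. In male brain the median log2 fold change was -0.53 over the 7 genes and -0.82 over the 14 genes *Pcdhb9* to *Pcdhb22*. All 14 were below 0, and 11 passed the threshold as lower, against 0.166% of all genes tested. In female brain the medians were -0.76 and -0.99. All 14 were again below 0, and 5 passed as lower, against 0.111% of all genes. In cerebellum the medians were -0.44 over the 7 and -0.04 over the 14. Of the 14, 2 passed as lower, against 0.3% of all genes, and 8 were below 0 where all 7 were. The interaction of genotype with tissue was positive for all 14 genes (0.10 to 1.07, median 0.67), and 6 of them passed by an adjusted p of at most 0.05, with values in cerebellum from -0.07 (*Pcdhb16*) to 0.16 (*Pcdhb19*), whereas it was -0.28 to 0.42 with a median of 0.05 for the 7 and 0 passed. Whether the 7 genes differ as a group from the 14 was not tested.

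**Figure D5:**
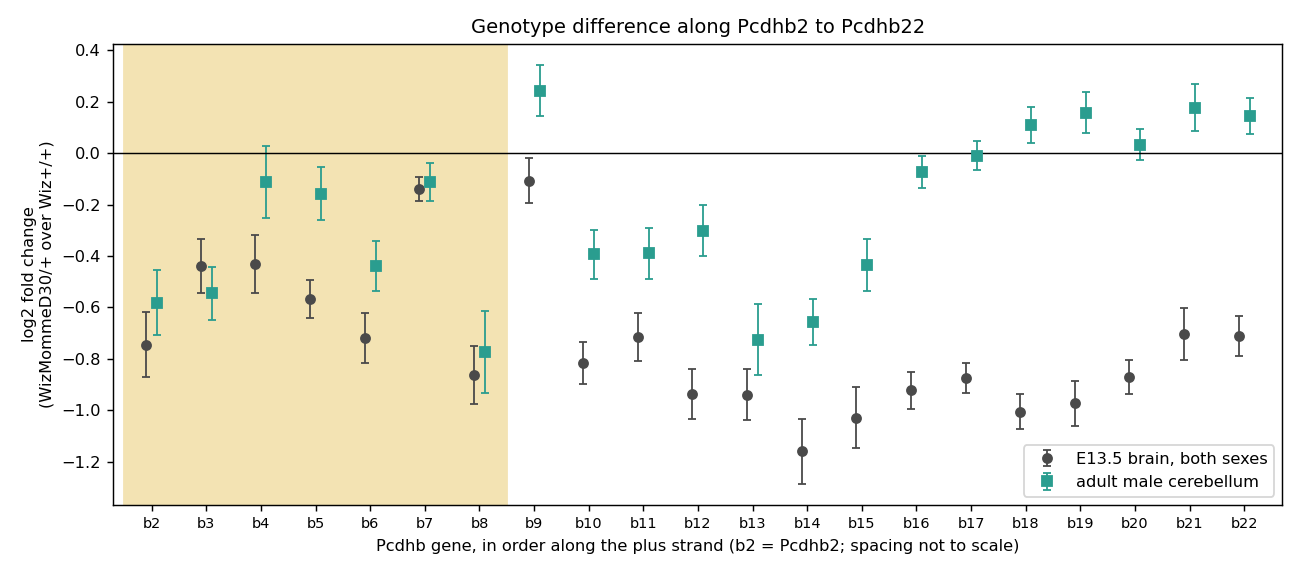
Log2 fold change of *Wiz*MommeD30/+ over *Wiz*+/+ (y axis, bars are standard errors) for the 21 genes *Pcdhb2* to *Pcdhb22* in their order along the strand (x axis, spacing not to scale), in the E13.5 brains of both sexes (grey circles) and in adult male cerebellum (green squares); *Pcdhb2* to *Pcdhb8* are shaded. In the shaded part all points of both tissues lie below 0, with medians of -0.57 and -0.44. The points of *Pcdhb5* are at -0.57 and -0.16, but its genotype by tissue term in males did not pass (adjusted p = 0.281, edgeR). From *Pcdhb16* on the green squares lie near 0 and the grey circles well below.

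The same can be seen in summed levels. The 7 genes together had 59.6, 56.4 and 55.6 CPM in male *Wiz*+/+ brains and 51.6, 45.4 and 43.8 CPM in male *Wiz*MommeD30/+ brains, a decrease of the mean to 0.820 of its value in *Wiz*+/+ brains. In females they had 64.3 and 64.5 against 43.3 and 44.8 CPM (0.684), and in cerebellum 56.4, 55.1 and 53.9 against 43.7, 43.5 and 42.2 CPM (0.782). The genotypes did not overlap in any set. As a share of the summed CPM of *Pcdhb2* to *Pcdhb22*, the 7 genes made up 26.9 to 27.9% in male *Wiz*+/+ and 34.3 to 35.3% in male *Wiz*MommeD30/+ brains, and 26.6 to 28.3% and 32.9 to 34.1% in females. In cerebellum the share went the other way, from 24.6 to 25.6% in *Wiz*+/+ to 21.2 to 23.0% in *Wiz*MommeD30/+ samples.

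*Pcdhb7* alone held much of the group's RNA. It made up 35.7 to 38.8% of the summed CPM of the 7 genes in male *Wiz*+/+ brains and 42.3 to 44.6% in male *Wiz*MommeD30/+ brains, 35.0 to 36.1% and 43.5 to 44.4% in females, and 26.2 to 30.5% and 31.7 to 35.0% in cerebellum. Without *Pcdhb7* the other 6 genes together stood at 0.738 of their *Wiz*+/+ mean in male *Wiz*MommeD30/+ brains, 0.595 in female and 0.729 in cerebellum.

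*Pcdhb1*, the first gene of the cluster, which lacks the promoter sequence that the others share, was hardly transcribed. It had 2 to 4 reads in each E13.5 *Wiz*+/+ brain and 0 or 1 in each *Wiz*MommeD30/+ brain, and 6 to 9 against 3 to 6 reads in cerebellum. All of these lie below the filter's minimum count of 10. It passed the filter on low counts in none of the 3 comparisons of genotype. Among the genes that act on such promoters, 18 were examined: CTCF, the cohesin subunits and their loading and release factors (*Rad21*, *Smc1a*, *Smc3*, *Stag1*, *Stag2*, *Nipbl*, *Mau2*, *Wapl*, *Pds5a* and *Pds5b*), *Smchd1*, the DNA methyltransferases *Dnmt3a* and *Dnmt3b*, and the histone methyltransferases or their partners *Setdb1*, *Ehmt1*, *Ehmt2* and *Zfp644*. In edgeR's test 0 of the 18 differed past the threshold between genotypes in any of the 3 sets (2 in males, 2 in females and 6 in cerebellum had an unadjusted p of at most 0.05), and by the adjusted p alone *Smc3* (log2 fold change 0.14), *Zfp644* (0.15) and *Dnmt3a* (0.11) were higher in cerebellum. The median log2 fold changes of the 18 were 0.02, 0.06 and 0.05.

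The genes most like the 7 were sought among 14180 genes with a mean of at least 1 CPM, by Pearson's r of log2 CPM with the mean of the 7 over the 16 samples. They were *Gm10557* (r = 0.93), *6820431F20Rik* (0.92), *Gm21092* (0.89), *Hoga1* (0.87), which codes for a mitochondrial enzyme of hydroxyproline breakdown, and *Pcdhb10* (0.87). After each of the 3 sets of samples was centred on its own mean, so that mainly the genotype difference was left, they were *6820431F20Rik* (0.98), *2610005L07Rik* (0.97), *Gm6483* (0.97), *Gm10557* (0.96) and *Gm21092* (0.96), and *Wiz* itself had an r of 0.92. *6820431F20Rik*, *2610005L07Rik*, *Gm6483* and *Gm21092* lie on chromosome 8, and these 4 and *Gm10557* are annotated as pseudogenes, so their counts may be shared with copies of like sequence. Among the 7 genes, r with their own mean on the centred scale ran from 0.74 (*Pcdhb4*) and 0.76 (*Pcdhb7*) to 0.97 (*Pcdhb6*). Each of the 7 is part of that mean, so these values cannot be set beside those of the other genes.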

How the data were processed

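PolyA RNA of 10 E13.5 brains and 6 adult cerebellums was sequenced by the authors as single-end reads, mapped to mm10 (TopHat2 2.0.11) and counted over Ensembl genes (HTSeq 0.6.1), and the authors deposited raw read counts per gene without normalization. The counting mode and strand setting are not given in the sources used here, so how reads over similar genes were treated is unknown. Each sample is 1 animal or embryo as far as the labels say, and p-values measure the spread between these samples.

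Symbols came from a table of Ensembl identifiers (40254 of 41388 matched) and positions from GENCODE M21. Each comparison was fitted across all its genes with edgeR 4.0.16 in R 4.3.3 (TMM, filterByExpr with a minimum count of 10, quasi-likelihood test, Benjamini-Hochberg adjustment over all genes tested). Genes past the threshold had an adjusted p no higher than 0.05 together with a fold change outside 0.7 to 1.3, the study's limits. Interaction terms used the adjusted p alone. The F statistic and the log2 fold change gave the standard errors (SE) and 95% intervals. Fits were also run on simulated counts with changes set only in genes with many reads, and the outcome is not given here. Transcripts were aligned with MAFFT 7.526. Replicates of a group differed by more than sampling noise, at 2.05 to 10.5 chi-square units per degree of freedom.

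The 7 genes, the lists and the tests were chosen with earlier results of these data known. Named genes are the 7, *Wiz*, *Pcdhb1*, the rest of the cluster by counts, medians and ranges, the 5 genes most like the 7 by each measure, and any of the 18 regulators past the threshold. Alternatives were DESeq2's size factors, total counts alone, DESeq2 1.42.0, no low-count filter, replicate number as a block, no fold threshold or an unadjusted p, all 5 *Wiz*+/+ brains, and each replicate left out.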

Additional observations from a re-analysis of the deposited data

How the results depend on the processing

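Each of the 7 genes kept a negative log2 fold change in male brain, female brain, the brains of both sexes and cerebellum under every alternative run, and no alternative other than those named here moved a count of the 7 genes past the threshold by over 1.5 times. In male brain that count was 1, and it was 4 without the low-count filter and 0 to 1 with a replicate left out (0 without *Wiz*+/+ brain 1 or 3 or *Wiz*MommeD30/+ brain 2). In female brain it was 0, and it was 2 with DESeq2's Wald test. It also moved without *Wiz*+/+ brain 1 or 2, but such fits hold 1 brain in a group and their counts are not given. In cerebellum it was 3, and 1 to 3 with a replicate left out (1 without *Wiz*+/+ or *Wiz*MommeD30/+ cerebellum 3). Over both sexes it was 4, and 3 to 5. For genotype by sex it was 0, and 4 by an unadjusted p. For genotype by tissue it was 0, and 1 by an unadjusted p. Between wildtype tissues it was 2, and it was 4 without a fold threshold and 1 to 2 with a replicate left out (1 without cerebellum 1 or male brain 3). The cause was not tested.

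Values near 0 changed sign. With a replicate left out, the genotype by sex term of *Pcdhb5* ran from -0.13 to 0.20 on the log2 scale. The genotype by tissue term ran from -0.12 to 0.25 for *Pcdhb2*, from -0.0606 to 0.18 for *Pcdhb4*, from -0.12 to 0.00278 for *Pcdhb7* and from -0.16 to 0.19 for *Pcdhb8*. That of *Pcdhb8* was also -0.000767 with total counts alone and -0.0148 without the low-count filter. The tissue difference in wildtype ran from -0.13 to 0.11 for *Pcdhb2* and from -0.15 to 0.0507 for *Pcdhb3*.

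Over all genes, the number past the threshold went in male brain from 31 to 175 without the filter and 20 to 117 with a replicate left out. In female brain it went from 19 to 32 with DESeq2. In cerebellum it went from 133 to 75 with DESeq2, 211 without the filter, 839 without a fold threshold and 70 to 153 with a replicate left out. Over both sexes it went from 61 to 101 without the filter. For genotype by sex it went from 0 to 1 with DESeq2 or without the filter and 0 to 13 with a replicate left out, and for genotype by tissue from 45 to 122 with DESeq2, 416 without the filter and 14 to 103 with a replicate left out.

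Replicate numbers gave no sign of pairing in male brain or cerebellum: residuals of same-numbered samples had correlations of -0.16 to -0.02 across genes. Differently numbered samples reached 0.10. In female brain, with 2 samples a genotype, the residuals of a group mirror each other and cannot show pairing. Shared litters were not tested. With replicate number as a block, 0 of the 7 genes passed in male brain (adjusted p of *Pcdhb5* 0.0646 in edgeR), and 3 in cerebellum, 4 over both sexes and 0 in female brain. Over all genes the block gave 3 in female brain and 13 for genotype by tissue. Counting limits the low genes most: *Pcdhb8* had as few as 58 reads in a library.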
